A study of Mus musculus with 5 samples.

Results

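The genes described here were picked by symbol as chromatin remodeler and histone modifier genes. They were the protein-coding genes of the GENCODE M21 annotation whose symbols begin with Smarc, Arid, Chd plus a number, Kdm, Kmt, Setd, Kat plus a number or Hdac, together with Ezh1, Ezh2, Eed, Suz12, Ep300 and Crebbp. They number 94 of 21951 coding genes. Some encode other subunits of such complexes or other ARID proteins, not a remodeling or modifying enzyme. A gene was counted as carrying a Pou4f1-enriched region when a region of the deposited table overlapped its gene body or lay within 10 kb of it, and 61 of the 94 genes did, through 73 of the 8038 regions.

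Pou4f1-bound DNA was mapped by CUT&Tag, in which an antibody bound to chromatin recruits a protein A-Tn5 transposase and only the DNA tagged nearby is amplified. Each sample was a pool of 4 retinas from wild-type mouse embryos taken at E16.5, dissociated with papain. Libraries were made with rabbit anti-Pou4f1 (n = 2) or with rabbit IgG as the negative control (n = 2). No group carried a transgene, a deletion or a treatment. A library made with anti-H3K9AC was not analysed here. The study's methods call the replicates independent, but neither they nor the labels say whether each came from its own pool of retinas, so each p-value measures only the spread between these libraries, which may be technical. The cells were whole retina, and the paper puts Pou4f1-expressing ganglion cells at only a small part of all retinal neurons at this age. The signal of a region sums over all cells. Strong occupancy in a few of the Pou4f1-expressing cells and weak occupancy in many of them therefore cannot be told apart.

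Pou4f1 is a POU-homeodomain transcription factor of retinal ganglion cells, the projection neurons of the retina, and is expressed there after the cells leave the cell cycle. Remodelers of the SWI/SNF, ISWI and CHD families use ATP to move or evict nucleosomes, while acetyltransferases and methyltransferases place marks on histone tails that deacetylases and demethylases take away. During neuronal differentiation several of these complexes exchange subunits, and Polycomb repressive complex 2 (PRC2) places the repressive H3K27 methyl mark.

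Most of the Pou4f1 regions at these genes lay on promoters, and few held a POU4 site. The POU4 consensus was searched as ATNAATAATT or ATNAATTATT on either strand, and a shorter core as ATNAATTA, which overlaps the second form of the consensus. The consensus was found in 4 of the 73 regions (5.48%), against 891 of all 8028 regions on assembled chromosomes (11.1%), and in 0 of the 73 when only the central 200 bp were read, against 4.38% of all regions. Split by place, it was found in 1.96% of the regions over the genes' own starts, against 2.52% of all regions over a coding start, and in 22.2% of those over no coding start (2 of 9), against 25.8% of all regions of that kind. The following stretches are shown because they hold the consensus (the first 4) or the core in a region that held no coding start (the other two). They were read from GRCm38.p6, which has the mm10 coordinates, and the capitals mark the motif.
Arid1b, the first region, chr17:5058978-5059080, plus strand: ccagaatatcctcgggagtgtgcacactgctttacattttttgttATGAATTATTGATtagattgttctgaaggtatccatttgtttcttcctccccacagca
Arid1b, the fourth region, chr17:5296277-5296376, plus strand: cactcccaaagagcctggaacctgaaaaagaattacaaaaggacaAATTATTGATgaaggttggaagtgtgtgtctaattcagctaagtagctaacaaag
Setdb2 start region, chr14:59440548-59440586, plus strand: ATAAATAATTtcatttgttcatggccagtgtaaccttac
Asic1 start region, near Smarcd1, chr15:99692094-99692196, plus strand: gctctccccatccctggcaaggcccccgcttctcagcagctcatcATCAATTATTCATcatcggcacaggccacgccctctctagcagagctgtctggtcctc
Arid1b, the third region, chr17:5212513-5212610, plus strand: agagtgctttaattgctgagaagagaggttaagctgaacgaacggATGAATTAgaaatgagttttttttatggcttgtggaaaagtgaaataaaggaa
Kdm6b upstream region, chr11:69419157-69419254, plus strand: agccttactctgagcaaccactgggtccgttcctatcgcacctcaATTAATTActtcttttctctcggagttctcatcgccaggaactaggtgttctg

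Of these 4 regions with the consensus, 2 were inside Arid1b, 1 covered the starts of both Setdb2 and Cab39l, and 1 covered the start of Asic1 and lay within 10 kb of Smarcd1. The core was found in 6 of the 73 regions (8.22%), against 14.6% of all regions. Among the 9 regions that covered no coding start it was found in 4 (44.4%), against 30.9% of all regions of that kind, whereas over the genes' own starts it was found in 1 of 51 (1.96%), against 5.05% of all regions over a coding start. The octamer ATGCAAAT, another POU-family site, was found in 5 regions (6.85%), against 3.64% of all. A match is a description of the letters, and the absence of a match says nothing of whether Pou4f1 was there.

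The promoter stretches below are shown because the highest regions of the Kdm, Hdac and Chd families covered them (Kdm4b, Hdac4 and Chd2), because they belong to PRC2 (Suz12 and Ezh2), or because they carried the lowest top signal of the demethylase family (Kdm7a). Each ends at or just before an annotated start of its gene, is written on the strand of the gene, overlaps no annotated exon, and lay wholly inside the region. Capitals mark 2 common promoter elements on either strand, the CCAAT box (CCAAT) and the GC box (GGGCGG).
Kdm4b promoter, chr17:56325762-56326061, plus strand: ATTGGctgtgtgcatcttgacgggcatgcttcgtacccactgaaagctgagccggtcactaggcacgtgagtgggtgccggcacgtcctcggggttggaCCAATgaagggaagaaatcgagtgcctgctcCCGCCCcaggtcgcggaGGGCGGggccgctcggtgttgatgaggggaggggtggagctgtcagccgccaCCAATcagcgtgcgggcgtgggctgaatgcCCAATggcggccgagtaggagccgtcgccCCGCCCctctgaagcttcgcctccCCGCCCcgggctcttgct
Hdac4 promoter, chr1:92180342-92180641, minus strand: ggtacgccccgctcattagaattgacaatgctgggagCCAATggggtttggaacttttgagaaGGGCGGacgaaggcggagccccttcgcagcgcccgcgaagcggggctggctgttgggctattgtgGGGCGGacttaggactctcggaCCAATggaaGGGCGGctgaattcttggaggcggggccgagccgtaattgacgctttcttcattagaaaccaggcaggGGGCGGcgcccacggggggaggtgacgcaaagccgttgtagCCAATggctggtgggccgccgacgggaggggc
Chd2 promoter, chr7:73537622-73537921, minus strand: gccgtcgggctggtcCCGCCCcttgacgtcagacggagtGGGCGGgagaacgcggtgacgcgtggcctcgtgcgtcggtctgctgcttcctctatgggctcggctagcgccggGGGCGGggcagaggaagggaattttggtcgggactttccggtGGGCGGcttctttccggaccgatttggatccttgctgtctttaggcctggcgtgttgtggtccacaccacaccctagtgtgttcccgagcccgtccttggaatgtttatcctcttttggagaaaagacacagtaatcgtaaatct
Suz12 promoter, chr11:79992806-79993105, plus strand: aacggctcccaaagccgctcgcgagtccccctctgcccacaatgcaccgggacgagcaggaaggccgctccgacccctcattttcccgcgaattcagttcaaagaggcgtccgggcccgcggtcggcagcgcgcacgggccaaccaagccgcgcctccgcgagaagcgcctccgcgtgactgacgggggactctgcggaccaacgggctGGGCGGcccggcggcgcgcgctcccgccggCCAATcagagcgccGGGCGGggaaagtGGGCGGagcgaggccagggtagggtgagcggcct
Ezh2 promoter, chr6:47595059-47595183, minus strand: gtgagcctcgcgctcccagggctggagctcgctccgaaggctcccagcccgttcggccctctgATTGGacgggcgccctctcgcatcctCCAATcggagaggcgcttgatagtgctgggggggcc
Kdm7a promoter, chr6:39206790-39207067, minus strand: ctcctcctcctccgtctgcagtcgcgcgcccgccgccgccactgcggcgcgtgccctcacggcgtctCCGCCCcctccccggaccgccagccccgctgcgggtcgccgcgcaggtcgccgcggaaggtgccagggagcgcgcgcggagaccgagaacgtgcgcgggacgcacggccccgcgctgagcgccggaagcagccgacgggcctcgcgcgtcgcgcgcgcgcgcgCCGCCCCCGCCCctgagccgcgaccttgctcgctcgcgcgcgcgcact

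The GC box was found in 49 of the 51 regions over a gene's own start (96.1%), against 90.6% of all regions over a coding start. In the central 200 bp these shares were 54.9% and 54.0%. The CCAAT box was found in 37 of the 51 (72.5%), against 67.7% of all regions over a coding start. In the central 200 bp it was found in 20 of the 51 (39.2%), against 23.2%. None of the 6 promoter stretches held the POU4 consensus or the core.

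A larger share of these genes than of coding genes as a whole carried a Pou4f1 region. The share was 64.9% (61 of 94) against 34.9% (7671 of 21951), and with the region required to lie within 1 kb of an annotated start of the gene it was 51.1% (48 of 94) against 25.4%. These shares are descriptions, without a test. The first difference, 29.9 percentage points, was 19.1 with only the gene body searched. It was 12.8 when a region counted only with both Pou4f1 libraries at or above their median over the table. Both shares were then lower, 26.6% (25 of the 94 genes) against 13.8% of coding genes. The genes were long, with a median of 49.7 kb against 17.4 kb for coding genes. Among genes of the longest tertile (above 31.8 kb) the shares were 71.2% of 66 genes against 48.7%, in the middle tertile 54.5% of 22 against 34.2%, and in the shortest tertile (under 9.20 kb) 33.3% of 6 against 22.0%. The difference also varied with promoter composition. With a CpG-rich promoter (an observed-to-expected CpG ratio of at least 0.6 and a GC content of at least 50% over 500 bp to each side of the start), 66.7% of 72 genes carried a region, against 56.1% of coding genes. With any other promoter the shares were 59.1% of 22 against 18.1%. In long genes with CpG-rich promoters the shares were 74.0% of 50 against 61.4%, and in the middle tertile with such promoters 50% of 18 against 53.6%, so the higher share was not seen in every class.

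**Figure D1:**
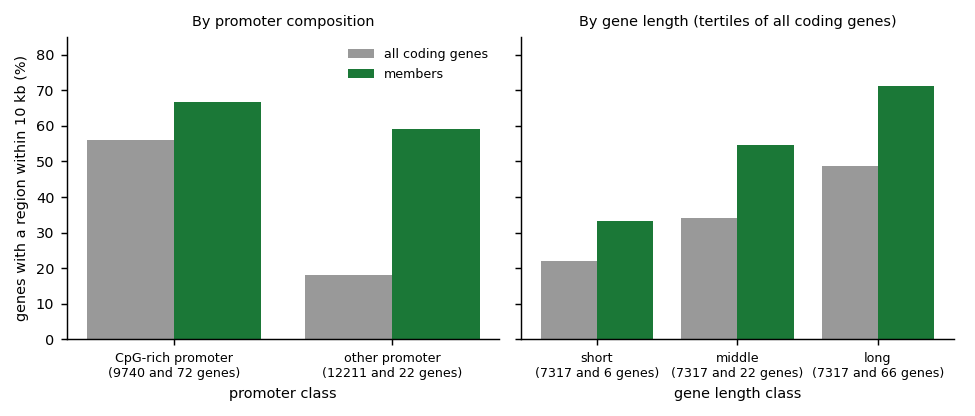
Share of genes with a Pou4f1 region within 10 kb, in percent, for all coding genes (grey) and for chromatin remodeler and histone modifier genes (green), split by promoter composition (left) and by gene length (right). Numbers under the bars give the genes in each class. The green bar is higher in every class shown, by the most where the promoter is not CpG-rich (59.1% against 18.1%).

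The 4 PRC2 genes, both p300/CBP genes and 7 of the 8 Kmt genes carried a region. Among the larger families the number was 12 of 18 for Kdm, 7 of 11 for Hdac, 7 of 10 for Chd, 7 of 10 for Arid and 7 of 13 for Smarc. It was lowest in the Setd family (5 of 10) and the Kat family (3 of 8). Within families the genes with a region were unevenly spread over subclasses, but these hold few genes each and the spread was not tested. All 4 class IIa deacetylases, which shuttle between nucleus and cytoplasm, had one, but neither of the 2 class IIb enzymes did. All 5 genes of the KMT2 group had one, against 0 of the 2 SETD1 genes. At a start of their own, 3 of the 4 class IIa genes and 3 of the 5 KMT2 genes had a region, beside 51.1% of the 94 genes. The KDM2/7 group had 3 of 3 and the KDM5 group of H3K4 demethylases 0 of 4, although Kdm5d lies on chromosome Y, where the table has 0 regions.

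**Figure D2:**
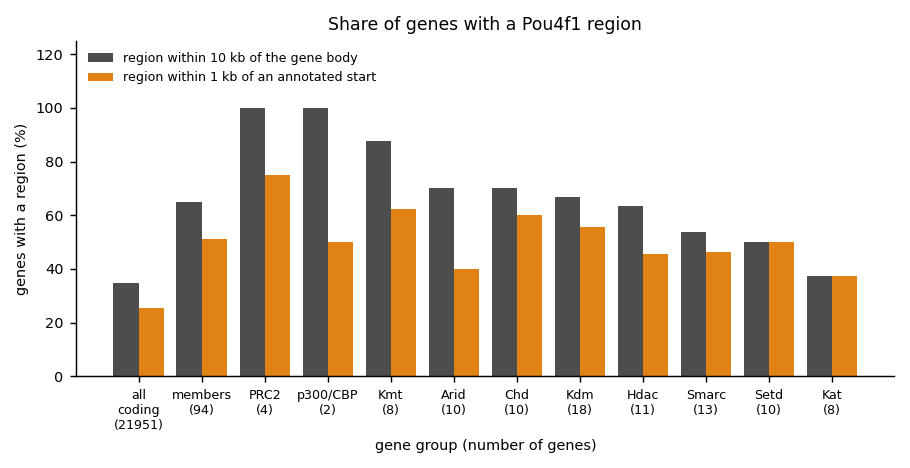
Share of genes with a Pou4f1 region, in percent, for all coding genes, for all 94 genes of the set and for each family, with a region within 10 kb of the gene body (dark) or within 1 kb of an annotated start of the gene (orange). The number of genes stands in brackets. The dark bars run from 37.5% in the Kat family to 100% in PRC2 and p300/CBP, against 34.9% of coding genes.

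Not every gene that was counted had the region at its own promoter. Of the 61 genes, 48 had a region at an annotated start of their own. For 9 others the region covered the start of a neighbouring coding gene instead. Among these were Crebbp (over Trap1), Hdac3 (Diaph1), Hdac7 (Slc48a1), Kmt2a (Tmem25), Kmt2d (Rhebl1), Kdm3b (Reep2), Chd3 (Rnf227) and Smarcc2 (Myl6). The remaining 4 of the 61 genes had regions away from any coding start, inside the gene in Arid1b and Arid3b and outside it in Ezh1 and Kdm6b. By region, 51 of the 73 lay at the gene's own start, 13 at the start of another coding gene, 7 inside the gene body and 2 outside it. Of the 51, 5 also covered the start of a neighbouring coding gene, those of Kdm1b (with Tpmt), Arid4b (Ggps1), Setd3 (Ccnk), Setdb2 (Cab39l) and the first region of Smarcc1 (Dhx30), and for these the signal cannot be given to one gene.

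As a rule the signal at these genes was of middling size. The deposited value is a signal per region, and over the 73 regions the Pou4f1 replicates had medians of 197 and 140, compared with 184 and 155 for all 8038. In the library named IgG the median was 5.04 and in the one named negative control 6.47. By the mean of both Pou4f1 libraries, 0 of the 73 were among the 80 highest regions of the table, 4 were in the top 10% and 37 in the top 50% (50.7%). The 51 regions over own starts had medians of 222 and 153, against 181 and 129 for all 5071 regions over a coding start. The 9 regions over no coding start had 173 and 139, against 190 and 231 for the 2967 of that kind.

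Replicate 1 gave the higher signal in 59 of the 73 regions, against 5373 of all 8038. At own starts it did so in 44 of 51, against 4246 of all 5071 regions over a coding start. The ratio of replicate 2 to replicate 1 had a median of 0.696, against 0.810 over all regions, and of 0.679 at own starts, against 0.70 over all coding starts. At 14 of the 73 regions replicate 1 was more than 2-fold above replicate 2, against 1226 of all 8038. At own starts the count was 11 of 51, against 984 of the 5071 over a coding start. At 2 regions, 1 of the Arid1b regions and that of Hdac9, the reverse was found, against 276 of all 8038. In sequence the regions were GC-rich, with a median of 62.2% against 59.6% over all regions, and of ordinary length, 999 bp against 995 bp.

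**Figure D3:**
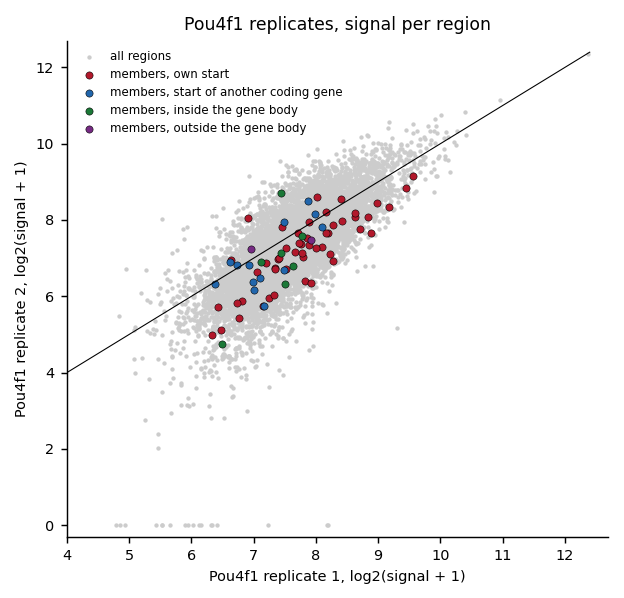
Signal of each region in Pou4f1 replicate 1 (x axis) and replicate 2 (y axis), both as log2(signal + 1), for all 8038 regions (grey) and the 73 regions of the chromatin genes, coloured by where they lie. The line marks equal signal. Of the 73, 59 lie below the line, as do 5373 of all 8038, and none reaches the highest grey points.

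Against IgG, the Pou4f1 signal was higher at 48 of the 73 regions (65.8%) by limma on log2(signal + 1) with an adjusted p under 0.05, where 64.8% of all 8038 regions were called. No region was lower (0 of 73, against 0.224% of all regions; 0 in every other setting tried). The regions had been called by the authors on Pou4f1 signal, so a higher value in Pou4f1 is in part how they were chosen. At 72 of the 73 each Pou4f1 library exceeded each IgG library, compared with 96.5% of all regions, and the exception was the intragenic region of Chd5. Whether a region was called followed the IgG values closely. All 19 regions at 0 in both IgG libraries were called, as were 22 of the 27 with signal in both, and 7 of the 27 at 0 in 1 of them. Over the whole table the same counts were 1829 of 1835, 1990 of 2687 and 1386 of 3516. The median log2 difference of the 73 regions was 5.30, against 5.22 over all regions. With Pou4f1 replicate 1 left out it was 5.03 against 5.06, and with replicate 2 left out 5.45 against 5.38. Without the library named IgG it was 4.82 against 4.61, and without the one named negative control 5.59 against 5.42. With each library divided by its total over the table, 19 were called (26%, against 22.7% of all regions). This scaling lowered the median log2 difference of all regions by 2.48, and 13 of the 73 differences turned negative. They were those at Arid3a, Arid3b, Arid3c, Arid4b, Chd6, Hdac3, Kdm2a, Kdm3b, Kmt5a and Smarcc2. The others were at the intragenic region of Chd5, the third of Chd9 and the Lin37 start near Kmt2b.

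How much sequence the IgG values rest on can be read only under an assumption. Signal times region length was a whole multiple of a step particular to the library in nearly all regions, 45 and 61.2 for the Pou4f1 replicates, 76.2 for the library named IgG and 88.9 for the one named negative control. If a step stands for 1 covered base, which the sources used here do not state, the median of the IgG values above 0 at these regions was 160 bases in both libraries, against 4168 and 2164 in the Pou4f1 replicates. The library named IgG was at 0 in 33 of the 73 regions and the one named negative control in 32. No fold is given below where both are at 0. Where only 1 is at 0, the log2 difference depends on the value added before the logarithm (the pseudocount). At Kdm1b, for example, it was 6.41 with the pseudocount of 1, 8.08 with 0.1 and 4.64 with 10.

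PRC2 is built around Eed, Suz12 and the methyltransferase Ezh2 or Ezh1. At the start of Suz12 (chr11:79992532-79993347) Pou4f1 replicates 1 and 2 reached 272 and 155, with both IgG libraries at 0 (adjusted p = 0.0024). At the start of Ezh2 (chr6:47594306-47595602) it was 241 and 80.2, again with both IgG libraries at 0 (adjusted p = 0.0066). Ezh2 is the subunit of dividing progenitors, and its replicates differed more than those of the other PRC2 genes. The Eed start (chr7:89980706-89981619), the gene of the subunit that reads the H3K27 mark, had 222 and 130 against 6.67 and 8.75 in IgG, a log2 difference of 4.30 ± 0.50 (SE, n = 2 per group, adjusted p = 0.0089). Ezh1, the enzyme of resting cells, had no region at a start. Its only region (chr11:101188356-101189565) lay 1550 bp outside the gene body, 37503 bp from the 5′ end, with 123 and 149 against 5.04 and 11.4 (log2 difference 3.98 ± 0.56, adjusted p = 0.014). The Pou4f1 and IgG values did not overlap at any of the 4 genes, as at 96.5% of all regions, and all 4 were called, beside 64.8% of all regions.

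The acetyltransferases p300 (Ep300) and CBP (Crebbp) are coactivators that acetylate histones at enhancers and promoters. The Ep300 start (chr15:81585313-81586730) had 85.2 and 51.3 against 0 and 12.5 in IgG, and it missed the threshold (log2 difference 4.19 ± 1.55, adjusted p = 0.082). By signal it ranked 7666 of the 8038 regions. The region counted for Crebbp covered the start of Trap1, 3067 bp outside the Crebbp gene body, with 126 and 82.3 in Pou4f1 and 0 in both IgG libraries (adjusted p = 0.0026). In the Kat family the start of Kat6b (chr14:21499216-21501253), a MYST acetyltransferase, had 504 and 350 against 5.99 and 25.5 (log2 difference 4.95 ± 0.87, adjusted p = 0.022). An intron of the same gene carried a further region, with 179 and 79.0 against 0 and 16.1, which missed the threshold (adjusted p = 0.075) and held the POU4 core. Kat2b, a GNAT acetyltransferase, had 291 and 200 against 0.973 and 3.97 (log2 difference 6.27 ± 0.68, adjusted p = 0.0076). Kat7, the lowest of the family, had 167 and 124 against 10.2 and 0 (log2 difference 5.44 ± 1.43, adjusted p = 0.046). In all 3 genes both Pou4f1 values lay above both IgG values, as at 96.5% of all regions, while Kat2a, Kat5, Kat6a, Kat8 and Kat14 had no region.

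The strongest signal of the whole set was at demethylase genes. The start of Kdm4b (chr17:56325456-56326422), which encodes an H3K9 demethylase, had 754 and 568 against 12.6 and 29.4 in IgG, a log2 difference of 5.01 ± 0.61 (adjusted p = 0.0099). It ranked 130 of the 8038 regions. Kdm1b, a flavin-dependent H3K4 demethylase, had 696 and 453 against 0 and 42.7 over a start region it shared with Tpmt (chr13:47043048-47044046). Its values did not overlap between groups, as at 96.5% of all regions. The IgG libraries differed and the test missed the threshold (log2 difference 6.41 ± 2.19, adjusted p = 0.071). Of the H3K27 demethylases, Kdm6a had 297 and 137 against 4.67 and 24.2 at its start on chromosome X (log2 difference 4.09 ± 1.02, adjusted p = 0.042). Kdm6b had no region at a start, and its region 5131 bp outside the gene body (chr11:69418806-69419375), which held the core shown above, had 241 and 177 with both IgG libraries at 0 (adjusted p = 0.0022). Kdm7a was the lowest of the family, with 87.5 and 33.4 and both IgG libraries at 0 (adjusted p = 0.0084). Of the 13 Kdm regions 9 were called, near the 64.8% of all regions, and the other 4 were those of Kdm1b, Kdm2a, Kdm3a and Kdm8. Kdm1a, the partner of the CoREST corepressor, had no region, and the nearest lay 239364 bp away.

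In the Kmt family the highest was Kmt5c, an H4K20 methyltransferase, with 393 and 288 against 0 and 20.5 (log2 difference 6.19 ± 1.79, adjusted p = 0.054). The start of Kmt2c (chr5:25498940-25500054), an enzyme of enhancer H3K4 methylation, had 310 and 235 against 10.9 and 12.8 and was called (log2 difference 4.40 ± 0.41, adjusted p = 0.0055). The regions counted for Kmt2a and Kmt2d, also of the KMT2 group, were not theirs by position. That of Kmt2a covered the start of Tmem25 with 179 and 102 against 13.7 and 0 (log2 difference 5.15 ± 1.60, adjusted p = 0.061). That of Kmt2d covered the start of Rhebl1, 9498 bp outside the gene body, with 143 and 52.4 and both IgG libraries at 0 (adjusted p = 0.0071). Kmt5a was the lowest of the family, and its IgG values came closest to Pou4f1, with 105 and 56.1 against 10.8 and 38.2 (log2 difference 1.86 ± 0.86, adjusted p = 0.12).

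In the Setd family, Setd2, which places H3K36 methylation, had 454 and 270 against 23.6 and 0 at its start (log2 difference 6.15 ± 1.88, adjusted p = 0.059). Setd3, which methylates actin, had 254 and 153 against 0 and 8.99 over a region shared with Ccnk (log2 difference 5.97 ± 1.39, adjusted p = 0.037). Setdb2, with the consensus shown above, was the lowest, with 141 and 52.4 and both IgG libraries at 0 (adjusted p = 0.0070). The replicates of Setdb2 thus differed by more than 2-fold, although neither came near the IgG values.

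Class IIa deacetylases repress transcription with MEF2 and are exported on calcium signals. The start of Hdac4 (chr1:92180093-92181290) was the highest deacetylase region, with 580 and 325 against 15.6 and 21.5 (log2 difference 4.49 ± 0.53, adjusted p = 0.0091). Hdac5 was the lowest, with 152 and 61.2 against 0 and 5.15 (log2 difference 5.30 ± 1.21, adjusted p = 0.036). In class I, the start of Hdac2 (chr10:36973683-36975656) had 341 and 252 against 6.18 and 7.21 (log2 difference 5.26 ± 0.42, adjusted p = 0.0038). Its close relative Hdac1 had no region within 10 kb, the nearest being 23927 bp away. The region counted for Hdac3 covered the start of Diaph1, with 251 and 284 against 29.3 and 17.1 (log2 difference 3.52 ± 0.48, adjusted p = 0.013). Of the 7 Hdac regions 6 were called (64.8% of all regions were), with Hdac11 as the exception (adjusted p = 0.10).

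The chromodomain remodeler gene Chd2 had the largest signal among those of the 73 regions that were at 0 in both IgG libraries. At its start (chr7:73537606-73538158) it reached 336 and 376 (adjusted p = 0.0022), and the replicates lay close together. Chd6 had 472 and 203 against 7.17 and 81.5 (log2 difference 3.58 ± 1.45, adjusted p = 0.096). Chd8, which is mutated in autism, had 309 and 121 against 15.6 and 0 (log2 difference 5.58 ± 1.72, adjusted p = 0.060). Neither passed the threshold, although in both genes the groups did not overlap, as at 96.5% of all regions. Chd9 carried 3 regions, each at an annotated start of its own. The one with the highest signal (chr8:90907842-90908857) had 393 and 267 against 24.0 and 0.613 (adjusted p = 0.053), the first had 209 and 200 against 11.1 and 0 (adjusted p = 0.042), and the third had 182 and 103 against 13.4 and 16.1 (adjusted p = 0.018). Chd5, a neuronal NuRD remodeler, was the lowest of the family. Its start region had 79.9 and 30.8 with both IgG libraries at 0 (adjusted p = 0.0086). Its region overlapping coding exons (chr4:152360547-152361806) had 88.7 and 25.7 against 29.0 and 18.6, so that the library named IgG lay above Pou4f1 replicate 2 (log2 difference 1.01 ± 0.82, adjusted p = 0.31). Chd4, the NuRD remodeler of most cells, and Chd7 had no region, with the nearest at 14331 bp and 42416 bp.

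SWI/SNF complexes are built on the ATPase Smarca4 or Smarca2. Smarca2 had a region at its start (chr19:26604646-26605610), with 284 and 200 in Pou4f1 and 0 in both IgG libraries (adjusted p = 0.0022). Smarca4 had none within 10 kb, and the nearest lay 19256 bp away. Of the scaffold subunits, Smarcc1 had regions at 2 of its starts, and both missed the threshold. The stronger had 183 and 152 against 17.1 and 0 (log2 difference 5.30 ± 1.69, adjusted p = 0.063), and the other, shared with Dhx30, had 132 and 99.1 against 29.5 and 0 (log2 difference 4.39 ± 1.99, adjusted p = 0.12). The region counted for Smarcc2 covered the start of Myl6, with 178 and 246 against 28.2 and 6.47 (log2 difference 3.83 ± 0.88, adjusted p = 0.037). Smarcd1 had 212 and 166 against 2.91 and 18.7 at its start (log2 difference 4.43 ± 1.0, adjusted p = 0.036). The other region within 10 kb of it, over the start of the ion channel gene Asic1, was the highest counted for the family, with 234 and 362 against 0 and 38.7 (log2 difference 5.53 ± 2.14, adjusted p = 0.088). Smarcd3 had no region. Smarcad1 was the lowest, with 160 and 65.0 and both IgG libraries at 0 (adjusted p = 0.0055).

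Arid1b, one of the alternative ARID subunits of SWI/SNF, differed from the other genes in having 4 regions, none of them at a start and all in introns. They lay between 64455 and 301668 bp from the 5′ end of the gene. The third (chr17:5212132-5212951) was the highest, with 172 and 417 against 0 and 26.0 (log2 difference 5.69 ± 1.98, adjusted p = 0.073), and it held the core 21 bp from its middle. The first (chr17:5058165-5059410) had 173 and 139 against 14.7 and 0 (adjusted p = 0.059), and held a consensus site 242 bp from its middle. The second had 197 and 109 with both IgG libraries at 0 (adjusted p = 0.0028), and the fourth (chr17:5295617-5296384), with the consensus 326 bp from its middle, had 138 and 119 against 0 and 9.26 (adjusted p = 0.045). The second and the fourth were called and the others were not, although the groups did not overlap at any, as at 96.5% of all regions. Arid1a, the alternative subunit, had no region, and the nearest lay 153578 bp away. Elsewhere in the family, Arid4a, which binds the retinoblastoma protein, had the highest signal, with 417 and 217 against 0 and 32.3 (log2 difference 5.71 ± 2.06, adjusted p = 0.078). Arid3a had the lowest, with 111 and 57.7 against 12.8 and 7.35 (log2 difference 2.92 ± 0.60, adjusted p = 0.030).

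**Figure D4:**
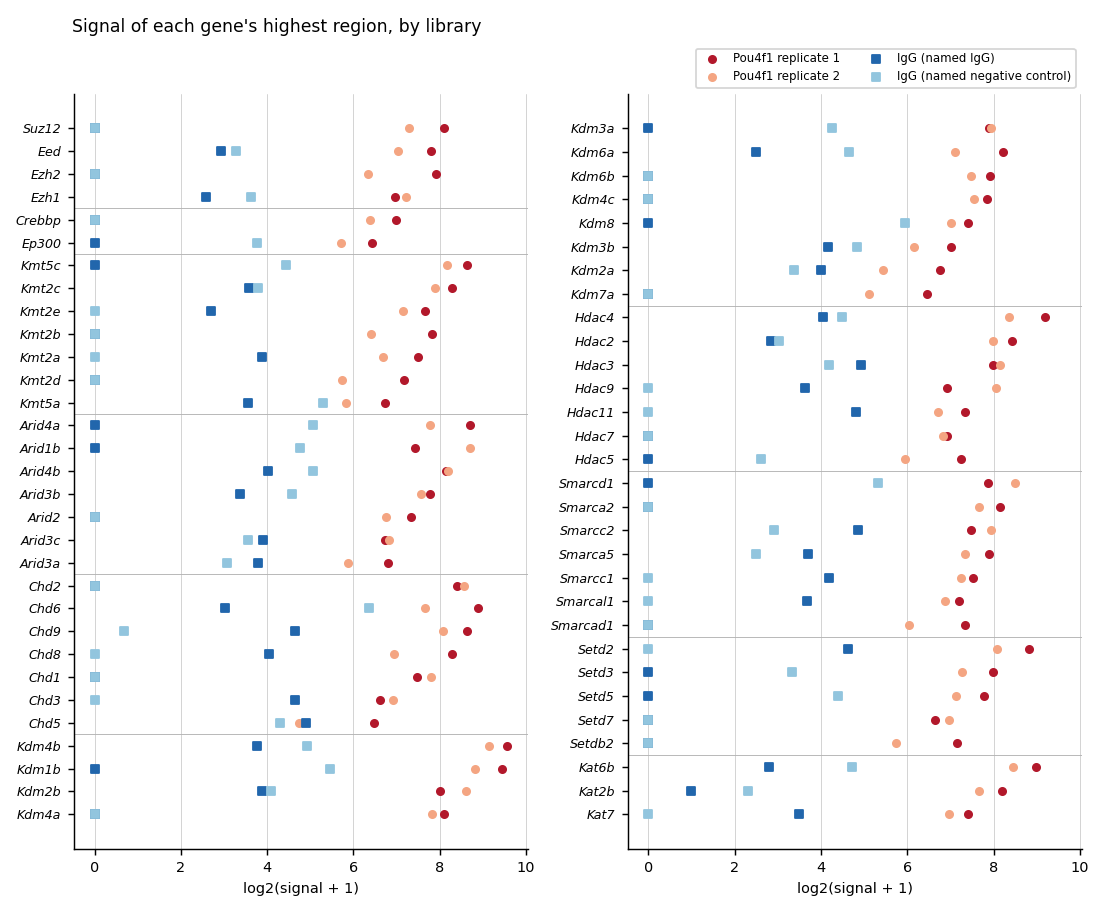
Signal of the highest region of each of the 61 genes with a region, as log2(signal + 1), in Pou4f1 replicate 1 (dark red), Pou4f1 replicate 2 (orange) and the IgG libraries, the one named IgG in dark blue and the one named negative control in light blue. Genes are grouped by family, and a light blue square at 0 covers a dark blue one where both IgG libraries are at 0. Circles lie to the right of squares for every gene but Chd5, where Pou4f1 replicate 2 (25.7) lies below the library named IgG (29.0). Each Pou4f1 library exceeded each IgG library at 96.5% of all regions.

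The remaining 25 regions belong to 22 other genes and to the region near Setd2 that covers the start of Nradd. They ranged from 81.8 to 284 in Pou4f1 replicate 1 (median 168) and from 42.3 to 391 in replicate 2 (median 128), and 17 of them were called, a share near the 64.8% of all regions. Among these genes are remodelers. Chd1 had 175 and 223 at its start with both IgG libraries at 0 (adjusted p = 0.0022), and the ISWI ATPase Smarca5 had 237 and 162 against 12 and 4.6 (adjusted p = 0.014). Arid2, the ARID subunit of the PBAF form of SWI/SNF, had 160 and 107 with both IgG libraries at 0 (adjusted p = 0.0024). Kdm2b recruits a variant PRC1 complex to CpG islands, and it had more signal in replicate 2 than in replicate 1, with 258 and 391 against 13.7 and 16 (adjusted p = 0.0069). The H3K9 demethylase genes Kdm4a and Kdm4c both had a region at a start. That of Kdm4a had 215 and 165 against 8.71 and 10.2 (adjusted p = 0.0061), and that of Kdm4c had 230 and 185 with both IgG libraries at 0 (adjusted p = 0.0022). Kmt2b and Kmt2e, of the same family as Kmt2a, also had regions at their own starts. Kmt2b had 225 and 84.1 with both IgG libraries at 0 (adjusted p = 0.0055) and Kmt2e 202 and 142 against 5.47 and 0 (adjusted p = 0.025). Hdac9 was called from a region at a start 388560 bp from the 5′ end of the gene, with 119 and 264 against 11.5 and 0 (adjusted p = 0.049). The 8 regions that missed the threshold were those of Chd3, Hdac11, Kdm2a, Kdm3a, Kdm8, Setd5 and Smarcal1 and the one near Setd2. Kdm8 had the highest IgG value of these, 60.9 in the library named negative control, against 168 and 128 in Pou4f1 (adjusted p = 0.17).

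The 33 genes without a region were Arid1a, Arid5a, Arid5b, Chd1l, Chd4, Chd7, Hdac1, Hdac6, Hdac8, Hdac10, Kat14, Kat2a, Kat5, Kat6a, Kat8, Kdm1a, Kdm4d, Kdm5a, Kdm5b, Kdm5c, Kdm5d, Kmt5b, Setd1a, Setd1b, Setd4, Setd6, Setdb1, Smarca1, Smarca4, Smarcb1, Smarcd2, Smarcd3 and Smarce1. For 3 of them (Chd4, Setd6 and Smarca4) the nearest region lay within 20 kb, for 21 between 20 and 100 kb, and for 8 beyond 100 kb. A gene without a region is one at which the authors called none at this depth, which does not show that Pou4f1 was absent.

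Other genes of the same complexes and of the same kinds of enzyme were looked up from a list. Of 155 such genes 87 had a region (56.1%, beside 64.9% of the 94 genes and 34.9% of coding genes), and 63 had one at a start of their own (40.6%). The share was highest for the other NuRD subunits (7 of 8) and the partners of ISWI remodelers (7 of 9), followed by other lysine methyltransferases (13 of 18) and PRC1 (12 of 18). It was 9 of 18 for other SWI/SNF subunits, 9 of 18 for INO80 and SRCAP subunits, 6 of 10 for COMPASS subunits, 4 of 8 for other PRC2 subunits, 4 of 8 for other demethylases, 7 of 16 for HDAC corepressors, 7 of 17 for acetyltransferase partners and 2 of 7 for sirtuins. Of their 115 regions 67 were called higher in Pou4f1 (58.3%, beside 64.8% of all regions). Cbx6, a PRC1 subunit, had the highest signal among them, with 853 and 796 against 14.2 and 0 (log2 difference 7.72, adjusted p = 0.030). Regions were also found at all 10 genes listed as markers of retinal ganglion cells and at 0 of 6 genes of other tissues. The share over all coding genes was 34.9%. Both lists were chosen with earlier results of these data known, and they are short, so these counts cannot serve as a check of the tissue.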

How the data were processed

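Paired-end CUT&Tag reads were trimmed and masked by the authors, aligned to mm10 with Bowtie2 2.4.5 and used to call regions with SEACR in relaxed mode. The table the authors deposited gives 8038 regions and, for 4 libraries, their signal. Its scaling, the library depths and any pooling of replicates before calling were not given in the sources used here. Signal times region length was a whole multiple of a step of the library for 99.99% of the values above 0 in Pou4f1 replicate 1 and 100% in the other libraries (tolerance 0.05 steps). The column named negative control was taken as IgG, the study's only control antibody.

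Signal was compared as log2(signal + 1), Pou4f1 (n = 2) against IgG (n = 2), with limma 3.58.1 in R 4.3.3, without covariates or scaling. P-values were Benjamini-Hochberg adjusted over all regions, with a threshold of 0.05. An exact permutation test of 2 against 2 libraries cannot go below p = 0.33. The limma step was tested on simulated data. Starts are annotated transcript starts of GENCODE M21, and a region within 1 kb counted as at the start. Sequence was from GRCm38.p6. Shares of genes and motif matches were counted in Python 3.11.15 with pandas 2.3.3 and have no test.

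Genes with full values were Ezh1, Ezh2, Eed, Suz12, Ep300 and Crebbp; in each other family the 2 genes with the highest region and the gene whose highest region was lowest; 17 textbook members of neuronal chromatin complexes; genes with 3 or more regions; and genes with the POU4 consensus in a region. A sixth part of the rule, for regions with both IgG libraries at or above a Pou4f1 library, named no gene. Other genes are given in shorter form, and the neighbouring gene at 1 region is not reported here. The gene set, lists and rules were chosen with earlier results of these data known. Alternatives were the scaling of IgG, pseudocounts, a trend of spread on level, a filter on regions, each library left out, and other distances, promoter rules and motif windows.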

Additional observations from a re-analysis of the deposited data

How the results depend on the processing

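Of the 73 regions, 48 were called higher in Pou4f1. The count was 32 with IgG taken as 2 times shallower, 24 with IgG taken as 4 times shallower and 19 with column totals as library sizes, and from 23 to 72 with 1 library left out. It was 37 and 70 with pseudocounts of 0.1 and 10, 49 with a trend of spread on level and 48 with weak or short regions removed. The count of lower regions was 0 throughout. With column totals the log2 difference was -0.99 at Arid3a, -0.25 at Arid3b, -0.90 at Arid3c, -0.36 at Arid4b, -2.95 at the intragenic region of Chd5, -0.37 at Chd6, -0.82 at the third region of Chd9, -0.47 at Hdac3, -1.52 at Kdm2a, -1.88 at Kdm3b, -0.95 at the Lin37 start near Kmt2b, -2.10 at Kmt5a and -0.098 at Smarcc2. With IgG 4 times shallower it was -0.94 at the same Chd5 region and -0.081 at Kmt5a. The cause was not tested. Of the 94 genes, 61 had a region within 10 kb, and from 44 to 64 did with the other distances and ways of assigning a region, but 25 when both Pou4f1 libraries had to be at or above their medians. The difference from coding genes, 29.9 percentage points, was 19.1 with the gene body alone. It was 12.8 with that signal minimum (26.6% against 13.8% of coding genes) and from 25.6 to 28.8 otherwise. The median signal of 176 became 164213 as signal times length, which is another unit. The share with the POU4 consensus was 5.48% over whole regions and 0% in the central 200 bp. No paired analysis was possible because the IgG columns carry no replicate number. With 2 libraries per group, IgG values at 0 in many regions and a scaling that is not given, a region that missed the threshold is not shown to be without a difference.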
